A study of Mus musculus with 8 samples.

Results

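The genes described here encode leucine-rich repeat proteins of the neuronal surface together with the Trk receptors of the neurotrophins. They were chosen by symbol alone, as the members of the Islr, Lingo, Flrt, Lrrn, Lrrtm, Slitrk, Amigo, Lrrc4 and Ntrk families. The rule names 32 symbols, of which 30 had at least 1 read among the 21165 rows of the count table. Flrt3 has a row listed at 0 in all 8 libraries, and the expression of Lrrc4c was not analysed here. The libraries were made from polyadenylated RNA of the microdissected cortex of mouse embryos at E18.5, from 4 constitutive Nuak1 KO and 4 WT embryos. Nuak1 encodes a kinase of the AMPK-related family, and the comparison asks how its loss throughout the body alters transcripts of the fetal cortex. The methods give a Nuak1 tm1a floxed line and a C57Bl/6JRj background for the colony, and KO animals of this line do not live past birth. The labels place the embryos in 3 litters, whereas the series' design text speaks of 4. They give 2 males among the 4 KO and 1 among the 4 WT embryos. The columns hold a genotype and a number, so the labels of litter and sex could not be matched to a library. Sex was not read from the counts.

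Leucine-rich repeats are short stacked motifs that form a curved surface for binding other proteins, and developing neurons use many such proteins at growth cones and at nascent synapses. The Flrt, Lrrtm, Slitrk and Lrrc4 proteins bind partners on the opposing cell, among them latrophilins, neurexins, receptor tyrosine phosphatases and netrin-G proteins. The Lingo proteins and Islr2 act largely beside other receptors on the same cell, and Islr2, also called Linx, associates with Trk receptors and with Ret and takes part in axon guidance in the forebrain and the periphery. Ntrk2 and Ntrk3 encode TrkB and TrkC, which carry leucine-rich repeats outside the cell and a tyrosine kinase inside it.

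Islr2 was the only member past an adjusted p of 0.05, so its place in the genome and the sequence before its start are given first. It lies on chromosome 9 of NCBIM37, the assembly behind mm9, from 58044105 to 58052126 on the minus strand, and its paralog Islr lies on the same strand with 37155 bp between them. The 250 bases before the RefSeq start, taken from a promoter table of GRCm38.p6, occur once on chromosome 9 of NCBIM37, at chr9:58052127-58052376 on the minus strand, directly beside the annotated gene. They are printed 5′ to 3′ with each CpG dinucleotide in capitals.
Islr2 promoter: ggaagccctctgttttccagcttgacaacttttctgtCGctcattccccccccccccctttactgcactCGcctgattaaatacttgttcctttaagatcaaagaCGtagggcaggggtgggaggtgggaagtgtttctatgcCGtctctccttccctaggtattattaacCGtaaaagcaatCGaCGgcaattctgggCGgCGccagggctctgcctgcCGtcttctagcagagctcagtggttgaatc
The window holds 10 CpG, and its ratio of observed to expected CpG was 0.587, higher than in 64.6% of 27025 promoter windows of the same length. The 26 genes of the rule with such a window, Flrt3 and Lrrc4c among them, had a median ratio of 0.442, against 0.378 over all windows. These are descriptions of the sequence, since RNA counts do not measure a promoter.

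The libraries held between 9643711 and 27014858 counts, and the members took 0.0600% to 0.0711% of them. Nuak1 had 20.5, 13.7, 11.1 and 11.5 in KO R1 to R4 and 1377, 1445, 1118 and 877 in WT R1 to R4 as normalized counts, which puts all libraries on their mean effective size, so each column followed its genotype label. Replicates differed by more than sampling noise, with a chi-square per degree of freedom of at least 5.73 between any 2 libraries of the same genotype. One KO library stood apart, since the summed normalized counts of 9 meningeal fibroblast markers were 9609 in KO R1, at most 496 in the other KO libraries and 275 to 375 in WT. WT R4 was the shallowest library and had the lowest sum of 6 upper-layer markers, at 10163 normalized counts against 12256 or more in the other WT libraries. The summed 7 markers listed for excitatory neurons, the main cell type of the cortex, lay between 31736 and 37806 normalized counts in all 8 libraries. Tubb3 alone held 18852 to 23075 of them, so this sum mostly follows that gene. Tubb3 and Snap25 are not limited to excitatory neurons, so the sum does not measure how many excitatory neurons a library held.

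In WT cortex the members spanned a wide range of levels, here given as RPKM, reads scaled to exon length and to library size, so that genes can be compared. Islr2 had the highest level per length, 32.5 ± 1.88 (SD, n = 4), followed by Lrrc4b at 18.3 ± 1.53 (SD, n = 4). Ntrk3 had 16.6 ± 1.999 (SD, n = 4) and Ntrk2 13.5 ± 2.21 (SD, n = 4) on the same scale. The WT range of Islr2 lay above that of Lrrc4b, whereas Lrrc4b and Ntrk3, and likewise Ntrk3 and Ntrk2, had ranges that overlapped. After Ntrk2 came Lrrn3 at 6.60 ± 0.704 (SD, n = 4), with no overlap with Ntrk2, and then Lrrtm1 at 5.95 ± 0.825 (SD, n = 4). Of the 29 pairs of members that are neighbours in this order, 23 had overlapping WT ranges. Islr2, Ntrk2 and Ntrk3 together held 64.7% to 69.7% of the counts of all members in each library.

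**Figure D1:**
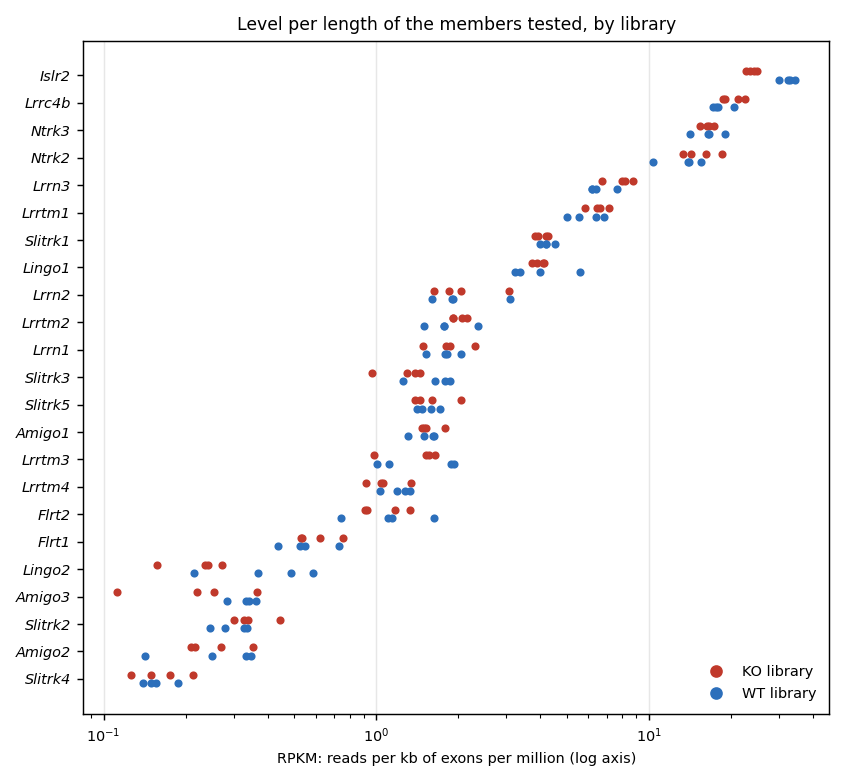
Level per length of the 23 members tested, in RPKM on a log axis, with 1 point per library (red KO, blue WT). Islr2 lies at the top, and it is the only member whose 4 KO points all lie apart from the 4 WT points.

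Of the 30 members with a count, 23 passed the filter on low counts and were tested. The 7 below it, among them Islr, Lingo3, Lingo4, Lrrn4, Slitrk6 and Lrrc4, held 0.359% of the members' counts. By the quasi-likelihood test of edgeR with Benjamini-Hochberg adjustment over all 12699 genes tested, 1 of the 23 members passed an adjusted p of 0.05, against 0.0709% of all genes. At the thresholds of the study, a log2 fold change of more than 0.25 in size together with an unadjusted p below 0.05, 3 of the 23 passed, against 4.25% of all genes. Lrrn3 was the 1 member past them in the higher direction, where 2.45% of all genes were, and Islr2 and Lingo2 were the 2 in the lower direction, where 1.8% of all genes were. Islr2 was also the 1 member whose normalized counts did not overlap between genotypes, against 4.49% of all genes. The median log2 fold change was 0.017 over the 23 members and -0.012 over all genes tested, with 12 members above 0 and 11 below. The other 20 members tested passed neither threshold, and counts of 1 to 3 genes do not describe the group as a whole. Without KO R1 and WT R4, a choice made after seeing the data, Islr2 alone passed either threshold, as it did for the thresholds of the study without WT R4 only. Over all genes, the thresholds of the study took 833 of 12848 without both libraries and 847 of 12887 without WT R4 only. An adjusted p of 0.05 was passed by 20 genes without both.

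**Figure D2:**
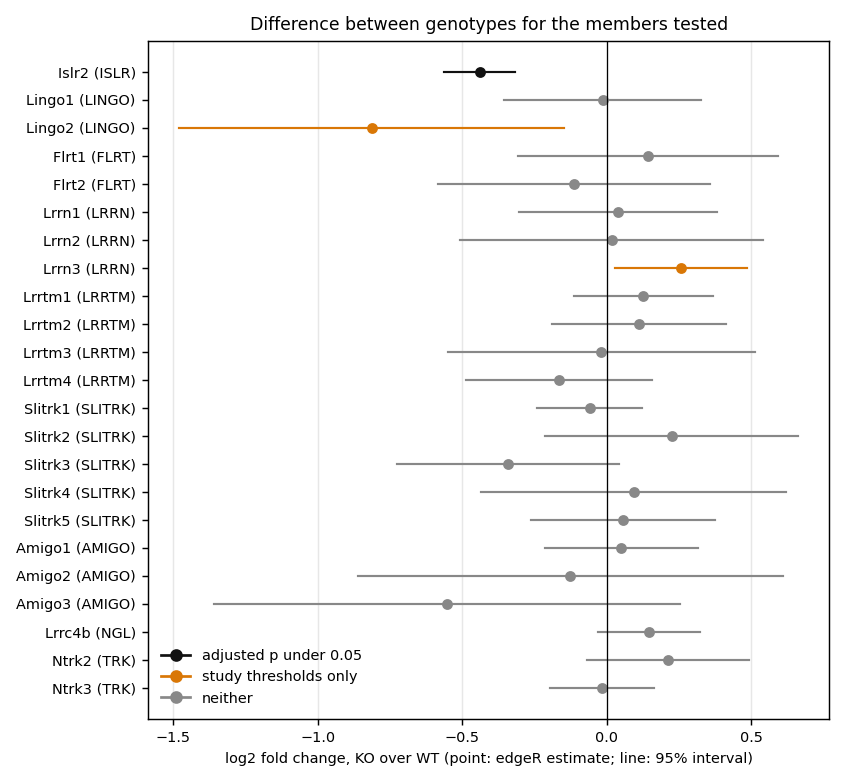
Log2 fold change of KO over WT for the 23 members tested, by family, with the 95% interval as a line. The interval of Islr2 ends at -0.32, those of Lingo2 and Lrrn3 also leave out 0, and those of the other 20 members include it.

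**Figure D3:**
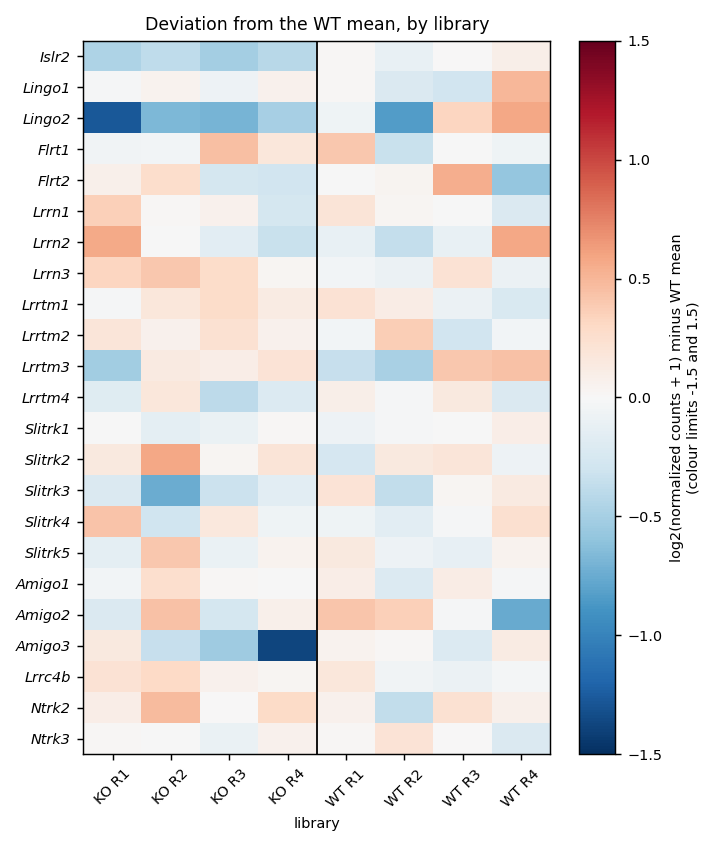
Deviation of log2(normalized counts + 1) from the WT mean for each tested member (rows) and library (columns), red above and blue below. Islr2 is below 0 in all 4 KO libraries, while in each of the other 22 members the values of the genotypes overlap.

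Islr2 was lower in every KO cortex than in any WT cortex. Its normalized counts were 1923, 2031, 1857 and 1988 in KO R1 to R4 and 2678, 2442, 2648 and 2814 in WT R1 to R4. Every KO library lay below every WT library, and the KO values were the closer together. The means were 1949.8 ± 76.1 for KO and 2645 ± 154 for WT (SD, n = 4 each), a change of -26.3% and a log2 fold change of -0.44 (95% interval -0.56 to -0.32) with a standard error of 0.056. The adjusted p was 0.0203 by the quasi-likelihood test of edgeR with Benjamini-Hochberg adjustment, and 7.1e-09 by DESeq2. The call was lost on leaving out KO R1, KO R3, KO R4, WT R1 or WT R3, with edgeR adjusted p of 0.0833, 0.138, 0.0849, 0.0750 and 0.0580, although the log2 fold change stayed between -0.48 and -0.40 over all 8 such fits. In bulk tissue, fewer cells of a type that carries the transcript and less of it per cell cannot be told apart.

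Summed markers of cortical layers also separated the genotypes. The summed normalized counts of 6 deep-layer markers were 6545 to 7160 in KO and 7765 to 8775 in WT, so these ranges did not overlap either. For WT R4 that separation rested on Crym, at 2574 there and 1387 or less in the other WT libraries. Without Crym the sum of WT R4 would fall below the KO sums. WT R4 had the lowest WT sum of these markers but the highest Islr2, at 2814. Of the 6, Bcl11b, Fezf2, Tle4 and Crym were past the thresholds of the study in the lower direction and Foxp2 in the higher direction. Sox5 was not past them, with a log2 fold change of 0.0063. Fezf2 and Tle4 overlapped between genotypes, with WT R4 inside the KO range. Crym, which encodes a thyroid hormone-binding protein, had a log2 fold change of -1.15 (95% interval -1.62 to -0.69), and Bcl11b, a transcription factor of subcortically projecting neurons, had -0.30 (95% interval -0.46 to -0.14). The 6 upper-layer markers summed to 14362 to 15574 in KO and 10163 to 13565 in WT. Cux1, a transcription factor of upper-layer neurons, was past the same thresholds in the higher direction. Sums of the 7 markers listed for excitatory neurons overlapped, at 33444 to 37806 in KO and 31736 to 36892 in WT. Tubb3 had the most counts of these markers, and neither it nor Snap25 is limited to excitatory neurons. By log2 fold change 4 of the 7 were above 0 and 3 below. Those above were Neurod6 at 0.27 (95% interval -0.046 to 0.59), Slc17a6 at 0.096, Tbr1 at 0.086 and Tubb3 at 0.045. Within that list Snap25, a protein of synaptic vesicle release, had 2076, 2429.6, 2438 and 2276 in KO R1 to R4 and 2789, 3119, 2662 and 3072 in WT R1 to R4. All KO libraries of Snap25 lay below all WT libraries, and its log2 fold change of -0.34 (95% interval -0.49 to -0.18) was past the thresholds of the study. Of all genes tested, 4.49% had no overlap in either direction. Slc17a7, a vesicular glutamate transporter, had a log2 fold change of -0.33 (95% interval -0.66 to 0.0036) and was not past them. The part of these markers in the lower count of Islr2 was not tested. Leaving out KO R1 and WT R4 gave Islr2 a log2 fold change of -0.39 (adjusted p = 0.0380 by the quasi-likelihood test of edgeR with Benjamini-Hochberg adjustment).

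**Figure D4:**
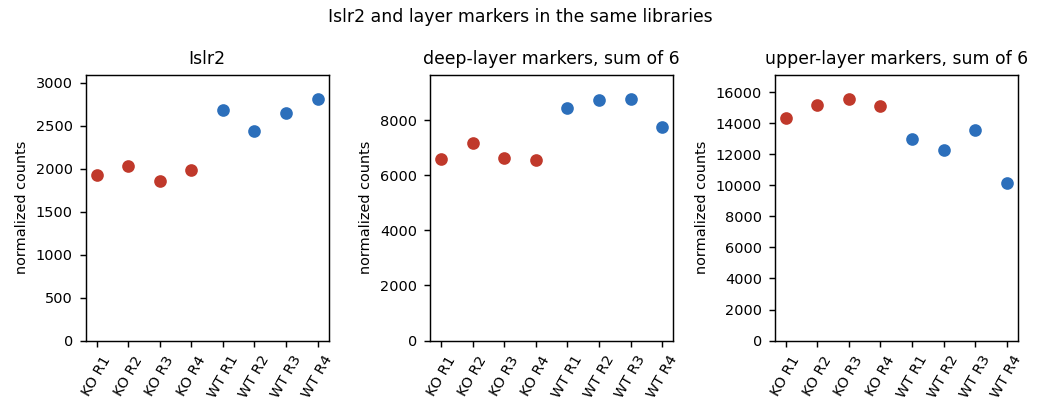
Normalized counts of Islr2 and the summed normalized counts of 6 deep-layer and 6 upper-layer markers in each library, on axes from 0. Islr2 and the deep-layer sum are lower in all 4 KO libraries, and the upper-layer sum is higher in all 4. The deep-layer sum of WT R4 stays above KO only through its high Crym count.

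Islr, the paralog of Islr2 and a secreted protein of stromal cells, had too few reads to be tested. Its normalized counts were 99.9, 4.56, 9.28 and 10.1 in KO R1 to R4 and 9.25, 10.5, 15.9 and 8.45 in WT R1 to R4. KO R1 alone was high and the other 7 libraries lay between 4.56 and 15.9, with the 3 other KO libraries inside or just under the WT range. The same library held the meningeal fibroblast markers at 9609 summed normalized counts, where no other library exceeded 496. All 9 markers of that list had a count in KO R1, among them Col1a1 at 1199 normalized counts there and at most 43.8 elsewhere. Foxc2, a transcription factor of the list, had only 3 reads in KO R1 and was listed at 0 in the other 7 libraries. The part of meningeal tissue in the reads of Islr was not tested.

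**Figure D5:**
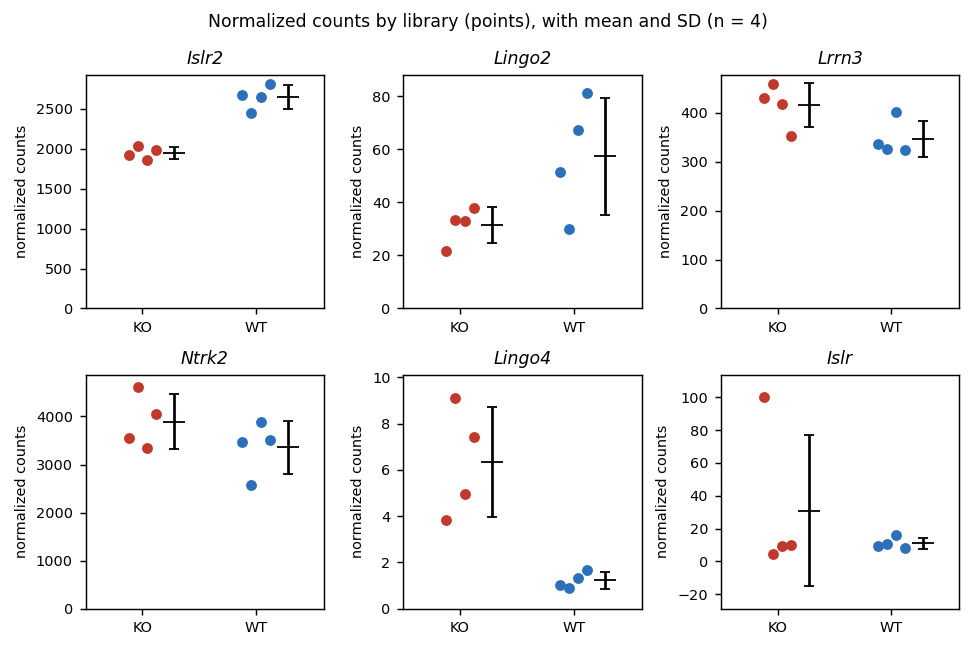
Normalized counts of 6 members by library on linear axes, with KO libraries in red, WT libraries in blue and the mean ± SD (n = 4) beside them. Islr2 separates the genotypes, Lingo2, Lrrn3 and Ntrk2 overlap, Lingo4 separates on 32 reads in all, and Islr is high in KO R1 only.

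The Lingo proteins pair with other receptors of the axon surface, and Lingo1 is part of the receptor complex for myelin inhibitors that also holds Rtn4r, Ngfr or Tnfrsf19. Lingo1 had normalized counts of 252, 266, 243 and 268 in KO R1 to R4 and 258, 219, 209 and 361 in WT R1 to R4. WT R4 was the highest library and the KO values lay inside the WT range, with a log2 fold change of -0.014 (95% interval -0.35 to 0.33). Lingo2, a close relative found mainly in the nervous system, had 21.8, 33.4, 32.8 and 37.8 in KO R1 to R4 and 51.4, 29.8, 67.4 and 81.1 in WT R1 to R4. WT R2 lay among the KO libraries, so the groups overlapped although KO R1 was the lowest and WT R3 and R4 the highest. The means of Lingo2 were 31.5 ± 6.81 for KO and 57.4 ± 22.05 for WT (SD, n = 4 each), with a log2 fold change of -0.81 (95% interval -1.48 to -0.15). Its unadjusted p was 0.0212 and its adjusted p 0.592 by the quasi-likelihood test of edgeR with Benjamini-Hochberg adjustment. Lingo2 was no longer past the thresholds of the study without KO R1, WT R3 or WT R4, where its log2 fold change was -0.67, -0.71 and -0.60 and its adjusted p in edgeR 0.865, 0.986 and 0.429. Without both KO R1 and WT R4 the log2 fold change of Lingo2 was -0.46.

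Lingo3 and Lingo4 were below the filter. Lingo3 had 14, 6, 4 and 13 in KO R1 to R4 and 5, 7, 9 and 6 in WT R1 to R4 as raw reads, with groups that overlapped. Lingo4 had 3, 6, 8 and 11 in KO R1 to R4 and 1, 1, 1 and 1 in WT R1 to R4 as raw reads. Each KO library therefore held more Lingo4 reads than any WT library, 28 against 4 in all, and the normalized counts did not overlap. Among genes tested, 4.49% lacked overlap in either direction, but that share does not cover genes below the filter such as Lingo4. With 1 read in each WT library, the separation rests on very few reads. The ratio of KO to WT was 5.34 after scaling for depth, with a counting interval of 1.87 to 21.0 that covers counting error only. Without the filter, edgeR's quasi-likelihood test gave Lingo4 an unadjusted p of 0.00206 and a Benjamini-Hochberg adjusted p of 0.406. A processed transcript on the opposite strand shares 79 exonic bases with Lingo4.

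The Flrt proteins bind Unc5 receptors and latrophilins and steer migrating cortical neurons. Flrt1 had normalized counts of 51.2, 51.7, 73.02 and 60.03 in KO R1 to R4 and 70.9, 42.1, 52.8 and 50.7 in WT R1 to R4. WT R1 and KO R3 were its highest libraries, and the log2 fold change was 0.14 (95% interval -0.31 to 0.59). Flrt2 had 149.9, 170.3, 118 and 116 in KO R1 to R4 and 141, 146, 207 and 94.6 in WT R1 to R4. Its highest and lowest libraries were both WT, R3 and R4, and the log2 fold change was -0.11 (95% interval -0.58 to 0.36). Flrt3 was listed at 0 in every library; the annotation of NCBIM37 holds 2 overlapping records of Flrt3 on the same strand, and the manner in which its reads were counted was not tested.

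The Lrrn genes encode neuronal transmembrane proteins with repeats and an immunoglobulin domain, and Lrrn3 had the highest level per length among them. Lrrn3 had normalized counts of 430.5, 459, 419 and 353 in KO R1 to R4 and 336, 325, 402 and 324 in WT R1 to R4. KO R1, R2 and R3 lay above all WT libraries, whereas KO R4 lay below WT R3, so the groups overlapped. Its means were 416 ± 44.7 for KO and 347 ± 36.97 for WT (SD, n = 4 each), with a log2 fold change of 0.26 (95% interval 0.027 to 0.49). The unadjusted p was 0.0316 and the adjusted p 0.630 by the quasi-likelihood test of edgeR with Benjamini-Hochberg adjustment. Lrrn3 stayed past the thresholds of the study without KO R4 or WT R3, with a log2 fold change of 0.33 and 0.34. It was lost without KO R1, KO R2, KO R3, WT R1, WT R2 or WT R4, where the log2 fold change was 0.25, 0.22, 0.25, 0.24, 0.23 and 0.23. The unadjusted p in edgeR was then 0.0543, 0.0714, 0.0635, 0.0720, 0.0796 and 0.0544. Without KO R3 the log2 fold change of 0.2512 was still past 0.25, so the p alone decided there.

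Lrrn2 had normalized counts of 182, 122, 110.2 and 97.1 in KO R1 to R4 and 113, 95.5, 114 and 184 in WT R1 to R4. KO R1 and WT R4 were both high and the other libraries close together, with a log2 fold change of 0.017 (95% interval -0.51 to 0.54). Lrrn1 had 139.7, 109, 114 and 90.4 in KO R1 to R4 and 124, 110.4, 108 and 92.9 in WT R1 to R4. The Lrrn1 values of KO enclosed those of WT, and the log2 fold change was 0.040 (95% interval -0.30 to 0.38). Lrrn4 had 1, 0, 0 and 2 in KO R1 to R4 and 0, 0, 0 and 2 in WT R1 to R4 as raw reads, too few for a comparison.

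The Lrrtm proteins are postsynaptic organizers, with Lrrtm1 and Lrrtm2 binding neurexins and Lrrtm4 also binding glypicans. Lrrtm1 had normalized counts of 293, 333, 358 and 323 in KO R1 to R4 and 343, 321, 277 and 252 in WT R1 to R4. The groups overlapped, with KO R3 highest and WT R4 lowest, and the log2 fold change was 0.13 (95% interval -0.11 to 0.37). Lrrtm2 had 193, 179, 201 and 179 in KO R1 to R4 and 166, 221, 140.0 and 166 in WT R1 to R4. The 4 KO values lay inside the WT range, and the log2 fold change was 0.11 (95% interval -0.19 to 0.41). Without WT R2, the highest library, Lrrtm2 had a log2 fold change of 0.26 and an unadjusted p of 0.0460 in edgeR, past the thresholds of the study. Lrrtm3 had 69.2, 109, 107 and 115 in KO R1 to R4 and 78.1, 70.98, 132 and 135 in WT R1 to R4. KO R1 was low together with WT R1 and R2, and the log2 fold change was -0.018 (95% interval -0.55 to 0.51). Lrrtm4 ranged over 92.8 to 137 in KO and 105 to 135 in WT, with a log2 fold change of -0.16 (95% interval -0.49 to 0.16). Lrrtm4 shares 25.1% of its exonic bases with a transcript on the opposite strand, and which of the genes those reads came from was not tested.

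The Slitrk proteins bind receptor tyrosine phosphatases across the synapse, and Slitrk3 is known for organizing inhibitory synapses. Slitrk1 had normalized counts of 295, 268, 276 and 299 in KO R1 to R4 and 281, 294, 295 and 319 in WT R1 to R4. Its values lay between 268 and 319 in all 8 libraries, the groups overlapped, and the log2 fold change was -0.059 (95% interval -0.24 to 0.12). Slitrk3 had 85.8, 59.3, 79.8 and 89.04 in KO R1 to R4 and 115, 77.1, 102 and 109.8 in WT R1 to R4. WT R2 lay among the KO libraries and KO R2 was the lowest, and the log2 fold change was -0.34 (95% interval -0.73 to 0.044) with an unadjusted p of 0.0769 in edgeR. Without WT R2 the edgeR p of Slitrk3 was 0.0202, which is past the thresholds of the study. Slitrk5 had 110.2, 163, 114 and 127 in KO R1 to R4 and 136, 117, 112 and 127 in WT R1 to R4. KO R2 was its highest library and KO R1 its lowest, with a log2 fold change of 0.056 (95% interval -0.26 to 0.37).

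Slitrk2 ranged over 40.2 to 59.3 in KO and 32.9 to 44.9 in WT normalized counts, with a log2 fold change of 0.22 (95% interval -0.21 to 0.66). Slitrk4 ranged over 18.2 to 30.7 in KO and 20.2 to 27.03 in WT, with a log2 fold change of 0.093 (95% interval -0.44 to 0.62). Slitrk6 had 4, 1, 1 and 3 in KO R1 to R4 and 0, 0, 0 and 0 in WT R1 to R4 as raw reads, so it was at 0 throughout WT. Against a floor of 3 counts over the WT group, the 9 KO reads of Slitrk6 gave a ratio of 2.29 after scaling for depth. That ratio carries no counting interval for the 9 reads, so it is not a lower bound. Of these reads 4 were in KO R1, the library with high meningeal fibroblast markers. Its unadjusted p without the filter was 0.0169 and its adjusted p 0.648 by the quasi-likelihood test of edgeR with Benjamini-Hochberg adjustment.

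The Amigo proteins mediate contacts between neurites, and Amigo1 is also an auxiliary subunit of a voltage-gated potassium channel. Amigo1 had normalized counts of 135, 164, 139 and 137 in KO R1 to R4 and 148, 120.1, 149 and 137 in WT R1 to R4. KO R2 was the highest library and the rest overlapped, with a log2 fold change of 0.050 (95% interval -0.21 to 0.31). Amigo2 had 10.2, 16.7, 9.90 and 12.8 in KO R1 to R4 and 16.4, 15.8, 11.9 and 6.76 in WT R1 to R4. WT R4 was the lowest and the groups overlapped, with a log2 fold change of -0.13 (95% interval -0.86 to 0.61). Amigo3 had 15.4, 10.6, 9.28 and 4.72 in KO R1 to R4 and 14.4, 14.02, 11.9 and 15.2 in WT R1 to R4. KO R4 was the lowest and KO R1 the highest, and the log2 fold change was -0.55 (95% interval -1.36 to 0.25). Without KO R1, Amigo3 had a log2 fold change of -0.80 and an unadjusted p of 0.0463 in edgeR, past the thresholds of the study.

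Lrrc4b encodes the netrin-G ligand that binds the phosphatase encoded by Ptprf, and it had the second highest level per length of all members. Lrrc4b had normalized counts of 1030.1, 1087, 925 and 903 in KO R1 to R4 and 996, 855, 829.7 and 868 in WT R1 to R4. KO R1 and R2 lay above all WT libraries and KO R3 and R4 among them. The log2 fold change of Lrrc4b was 0.15 (95% interval -0.031 to 0.32), with an unadjusted p of 0.0967 in edgeR. Lrrc4, whose product binds the netrin-G encoded by Ntng2, had 4, 3, 11 and 9 in KO R1 to R4 and 5, 8, 5 and 3 in WT R1 to R4 as raw reads, and its groups overlapped.

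Ntrk2 and Ntrk3 were, with Islr2, the members with the most reads. Ntrk2, the receptor of the neurotrophin encoded by Bdnf, had normalized counts of 3549, 4620.5, 3343 and 4059.9 in KO R1 to R4 and 3474, 2583, 3888 and 3499.8 in WT R1 to R4. KO R2 was the highest library and WT R2 the lowest, and the groups overlapped. The means of Ntrk2 were 3893 ± 571 for KO and 3361 ± 552 for WT (SD, n = 4 each), with a log2 fold change of 0.21 (95% interval -0.068 to 0.49) and an unadjusted p of 0.123 in edgeR. Without WT R3 the edgeR p was 0.0444, past the thresholds of the study. Ntrk3, the receptor of the neurotrophin encoded by Ntf3, had 1443, 1422, 1339 and 1496 in KO R1 to R4 and 1442, 1648, 1432 and 1225 in WT R1 to R4. Its KO values lay inside the WT range, and the log2 fold change was -0.016 (95% interval -0.20 to 0.16).

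The partners that the members bind, 29 genes with a row of which 26 were tested, were read beside them. None passed an adjusted p of 0.05 by the quasi-likelihood test of edgeR with Benjamini-Hochberg adjustment, 4 had an unadjusted p under 0.05, and 3 passed the thresholds of the study, 2 higher and 1 lower. Of all 12699 genes tested, 977 had an unadjusted p under 0.05 and 4.25% passed the thresholds of the study. DESeq2 placed Unc5c past an adjusted p of 0.05 and the same 3 genes past the thresholds of the study. Over all 12699 genes it placed 65 and 489 there. Unc5c, a netrin receptor and a partner of Flrt proteins, had normalized counts of 496, 569, 573 and 625 in KO R1 to R4 and 348, 203, 389.8 and 333 in WT R1 to R4. All KO libraries of Unc5c lay above all WT libraries, with a log2 fold change of 0.84 (95% interval 0.48 to 1.21), an unadjusted p of 0.000369 and an adjusted p of 0.180 by edgeR's quasi-likelihood test. Such a lack of overlap, in either direction, was found for 4.49% of all genes tested. Odz1, the teneurin now called Tenm1, had 21.8, 51.7, 28.5 and 33.7 in KO R1 to R4 and 20.6, 14.02, 30.4 and 13.5 in WT R1 to R4. WT R3 lay among the KO libraries, and the log2 fold change was 0.77 (95% interval 0.024 to 1.51), with an unadjusted p of 0.0441 in edgeR. Ntng1, which encodes the netrin-G partner of Lrrc4c, had 48.7, 53.2, 45.8 and 43.8 in KO R1 to R4 and 56.5, 38.6, 102 and 160.5 in WT R1 to R4. WT R3 and R4 were high, WT R1 lay just above the KO libraries and WT R2 below them, and the log2 fold change was -0.86 (95% interval -1.68 to -0.046), with an unadjusted p of 0.0402 in edgeR. Unc5c stayed past the thresholds of the study with each of the 8 libraries left out, and it was the only partner past them without KO R3. Odz1 stayed past them in 2 of these 8 fits, without KO R1 and without WT R3, and Ntng1 in 2, without WT R1 and without WT R2. Other partners joined, Odz2 without KO R2, KO R4 or WT R2, Unc5b without WT R3 and Odz4 without WT R4. With all libraries Odz2 had a log2 fold change of -0.23 (95% interval -0.47 to 0.0051). Odz4, the remaining partner with an unadjusted p under 0.05, had a log2 fold change of -0.22 (95% interval -0.42 to -0.031).

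The latrophilins Lphn1, Lphn2 and Lphn3, the neurexins Nrxn2 and Nrxn3 and the phosphatases Ptprd, Ptprf and Ptprs did not pass the thresholds of the study. Of the neurotrophins, Bdnf and Ntf5 were below the filter, and Ntf3 had a log2 fold change of 0.16 (95% interval -0.69 to 1.003). Ret, a receptor associated with Islr2, had -0.023 (95% interval -0.43 to 0.38), and Ngfr had -0.19 (95% interval -0.89 to 0.50). Downstream of the Trk receptors, 0 of 15 adaptor and effector genes passed the thresholds of the study, and 0 had an unadjusted p under 0.05 in edgeR. Since 4.25% of all genes tested passed those thresholds, 0 in so short a list says little. DESeq2 likewise placed 0 of the 15 past an adjusted p of 0.05 and 0 past the thresholds of the study. Frs3 passed them without KO R2, and Shc3 without WT R3. The lowest of the 15 was the adaptor Shc3, with an edgeR log2 fold change of -0.19 (95% interval -0.48 to 0.094), and the highest the docking protein Frs3, with 0.17 (95% interval -0.11 to 0.45).

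Among 21 other neuronal leucine-rich repeat genes with a row, 18 were tested and 3 passed the thresholds of the study, 2 higher and 1 lower, and none passed an adjusted p of 0.05 in edgeR while 3 had an unadjusted p under 0.05. Of all 12699 genes tested, 4.25% passed the thresholds of the study and 977 had an unadjusted p under 0.05. Lgi1, a secreted synaptic protein whose gene is mutated in an inherited epilepsy, had normalized counts of 261, 275, 232 and 291 in KO R1 to R4 and 311, 344, 378 and 432 in WT R1 to R4. Every KO library of Lgi1 lay below every WT library, with a log2 fold change of -0.46 (95% interval -0.72 to -0.21) and an adjusted p of 0.364 by the quasi-likelihood test of edgeR with Benjamini-Hochberg adjustment. Lrfn5, a synaptic adhesion molecule, had 1109.5, 1133, 1129 and 1199 in KO R1 to R4 and 992, 1068, 818 and 932 in WT R1 to R4. Its groups did not overlap, and its log2 fold change was 0.26 (95% interval 0.088 to 0.43) with an adjusted p of 0.483 in the same test. Genotypes without overlap, in either direction, were found for 4.49% of all genes tested. Lrig3, of a family that restrains receptor tyrosine kinases, had 84.6, 48.7, 75.5 and 89.04 in KO R1 to R4 and 45.2, 51.7, 54.2 and 59.1 in WT R1 to R4. KO R2 lay among the WT libraries, and the log2 fold change was 0.53 (95% interval 0.085 to 0.97) with an unadjusted p of 0.0236 in edgeR. DESeq2 placed 0 of the 18 past an adjusted p of 0.05 and 4 past the thresholds of the study, with Lrfn2 joining. Lgi1 was the only one past the thresholds of the study without KO R4, and 5 passed without WT R4, with Lgi3 and Lrfn2 joining.

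Several members lie inside another gene, which bears on how reads are assigned. In the annotation of NCBIM37, 9 of the 32 genes of the rule lie inside another protein-coding gene, 8 of them on the opposite strand. Lrrtm1, Lrrtm2 and Lrrtm3 lie inside the catenin genes Ctnna2, Ctnna1 and Ctnna3, and Lrrn3 lies inside Immp2l. Amigo3, Flrt1, Flrt3 and Lrrc4 lie inside Rnf123, Macrod1, Macrod2 and Snd1. The library kit keeps the strand, but the strand setting of the counting is not given in the sources used here, so reads of a member and its host cannot be told apart with certainty. None of the host genes tested was past the thresholds of the study, and Immp2l, the host of Lrrn3, had a log2 fold change of -0.030 (95% interval -0.58 to 0.52).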

How the data were processed

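RNA sequencing of 4 KO and 4 WT cortices was analysed from the reads per gene that the authors deposited as whole-number counts, without normalization. The submitters' processing notes name Cutadapt 1.13, TopHat2 2.0.13, SAMtools 0.1.19 and DESeq2, and the mm9 build; the methods add Prinseq trimming and HTSeq-count, whose version, mode and strand setting are not given in the sources used here. Embryos are separate samples, but litter and sex were not tied to columns, and 0 columns of other libraries were present.

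Counts were scaled by TMM, filtered with filterByExpr by genotype and tested in R 4.3.3 with edgeR 4.0.16 (limma 3.58.1) by the quasi-likelihood test with Benjamini-Hochberg adjustment over all 12699 genes. A standard error is the log2 fold change divided by the square root of F. Normalized counts were scaled to the mean effective library size of 16518046, and at total depths of 9643711 to 27014858 the floor of 3 counts corresponds to 1.86 to 5.07 normalized counts. Intervals of raw reads cover counting error only, and a ratio against the floor carries no interval. Per-length levels used the union of annotated exons in GENCODE vM1 on NCBIM37, matched by symbol, which may differ from the authors' annotation. The fitting step was checked on simulated data.

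Members, partners, other leucine-rich repeat genes, Trk adaptors and markers were chosen with earlier results of these data known. Every member is named except 1, which like a few genes of the other lists is not reported here. Values in every library are given for members past a threshold, without overlap, or among the 3 highest per length of a family. Genes of the other lists are named where past the thresholds of the study, and the layer markers, receptors, ligands and adaptors named beyond that were chosen after their values were seen. Alternatives were DESeq2 1.42.0, size factors of DESeq2 in edgeR, testing without the filter, at least 10 counts in every library, robust dispersion and each library left out. Leaving out KO R1 and WT R4 together was chosen after seeing the data. The expression of Lrrc4c was not analysed here.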

Additional observations from a re-analysis of the deposited data

Results flagged for a closer look

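Among 58 groups of 4 libraries, 1 for each genotype and member whose values were not all equal, 4 held a library far from the other 3, where chance alone gives about 2.9 (about 1 in 20). Islr was at 99.9 normalized counts in KO R1 (78 reads), and the nearest KO library was at 10.1. Amigo1 was at 164 normalized counts in KO R2, with the nearest KO library at 139. Lrrn3 was at 402 normalized counts in WT R3, with the nearest WT library at 336. Lrrn4 was at 3.38 normalized counts in WT R4, which is 2 reads, and at 0 in the other WT libraries.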

How the results depend on the processing

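Islr2 passed an adjusted p of 0.05 under DESeq2, DESeq2's size factors, no filter, at least 10 counts in every library, robust dispersion, and without KO R1 and WT R4 together. With each library left out, the number of members past it ranged from 0 to 1, and that of all genes from 2 to 11. Members past the thresholds of the study numbered 5 with no filter, as Lingo4 and Slitrk6 joined, 1 without KO R1 and WT R4, and 1 (without WT R4) to 4 (without WT R2) with each library left out. Over all genes these thresholds took 716 of 16524 with no filter and 833 of 12848 without KO R1 and WT R4. With 1 library left out they took 426 of 12942 (without WT R3) to 847 of 12887 (without WT R4), and 625 of 12676 without WT R2. Members without overlap numbered 3 with no filter, 2 without KO R1 and WT R4, and 1 to 4 (without WT R2) with each library left out, where smaller groups overlap less often by construction. The share of all genes without overlap is not given for these fits, so these counts are not read further. Partners past the thresholds of the study numbered 5 without KO R1 and WT R4 and 1 (without KO R3) to 3 with each library left out. Other leucine-rich repeat genes numbered 5 without KO R1 and WT R4 and 1 (without KO R4) to 5 (without WT R4) with each library left out. Trk signalling genes numbered 0 to 1 (without KO R2 or WT R3) with each library left out. The median log2 fold change of the members ranged from -0.010 to 0.069 with each library left out. The causes were not tested. Without KO R1 and WT R4, the log2 fold change changed sign to 0.28 for Lrrtm3, 0.18 for Lingo1 and -0.13 for Lrrn1. With each library left out, log2 fold changes that changed sign ranged from -0.17 to 0.14 for Lrrtm3, -0.10 to 0.17 for Lingo1, -0.18 to 0.24 for Lrrn2, -0.010 to 0.19 for Slitrk4, -0.064 to 0.14 for Lrrn1, -0.018 to 0.092 for Amigo1, -0.052 to 0.12 for Slitrk5, -0.077 to 0.059 for Ntrk3 and -0.26 to 0.091 for Flrt2; none of these members passed a threshold. No paired analysis was possible because no column names the embryo it came from. Depth limits the members below the filter, where 7 genes held at most 149 reads each.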
